A study of Mus musculus with 6 samples.

Results

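The genes described here encode the core machinery of transcription: subunits of RNA polymerase II and III (Pol II and Pol III), Mediator subunits, the TBP-associated factors (TAFs) and the general transcription factors. Members were the rows whose symbol begins with POLR2 or POLR3 and a letter, MED or TAF and a digit, or GTF2 or GTF3. The rule found 96 of the 14915 symbols in the table, and it used no expression value. Earlier results of these data were known, however, when the members and the lists below were chosen. RNA-seq had been run on cells labelled B16F10, an established mouse melanoma line, in 3 S127A libraries and 3 WT libraries. S127A cells carry an alanine in place of the serine at that position of the transcription factor ZBTB5, so that the site cannot be phosphorylated. WT cells are the unedited control. Every library of both groups came from cells given the inflammatory cytokine TNFα while amino acids were limited, so no comparison with unstimulated or fully fed cells can be made here. The study asked how this phosphorylation site bears on mTORC1 activation during inflammation. The sources used here do not say how many clones the S127A line comprises or whether the replicates were separate cultures. The limma p-values below therefore weigh the group difference against the spread between these libraries, which may be technical.

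The libraries labelled S127A did not match the melanoma label by its defining markers. All 8 melanocyte markers (PMEL, MLANA, TYR, TYRP1, DCT, MITF, SOX10 and SLC45A2) were lower, and their summed level was 27.6 to 33.2 TPM in S127A libraries, against 15335 to 15629 TPM in WT libraries. TPM is a transcript level per gene, corrected for gene length and scaled to the library total. Of 10 fibroblast markers, 6 were tested, 5 rose and 1 fell, and their summed level was 301 to 313 TPM in S127A libraries, against 16.2 to 17.2 TPM in WT libraries. COL1A2, a collagen gene, averaged 275 TPM in S127A and 1.41 TPM in WT libraries and made up most of that sum, and the other fibroblast markers summed to 31.4 to 33.9 TPM in S127A, against 14.7 to 15.9 TPM in WT libraries. LUM and THY1 were at 0 in S127A libraries and DCN was at 0 in WT libraries. Of 8 immune markers listed, 2 were tested, with 1 higher and 1 lower. The listed markers summed to 49.6 to 53.9 TPM in S127A libraries, against 8.21 to 9.3 TPM in WT libraries. CD14 made up most of the S127A sum, with 43.15, 45.8 and 46.5 TPM, and was at 0 in WT libraries. CD68, the lower gene, averaged 4.69 TPM in S127A and 7.64 TPM in WT libraries, so the immune markers did not rise as a set. Of 7 endothelial and epithelial markers listed, the single tested gene, the keratin KRT18, was higher, and they summed to 63.2 to 63.95 TPM in S127A libraries, against 1.37 to 1.76 TPM in WT libraries, where CDH5, KDR and KRT8 were at 0. Without KRT18 the sum was 0.75 to 0.86 TPM in S127A, against 1.19 to 1.76 TPM in WT libraries. These markers move with every difference given below, and their part in those differences was not tested. ZBTB5 itself had 9.24, 8.24 and 9.21 TPM in S127A libraries, against 15.9, 14.9 and 15.7 TPM in WT libraries, and a TPM does not show whether the codon was changed.

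Transcription in animal nuclei is shared between RNA polymerases: Pol I makes the large ribosomal RNA precursor, Pol II makes messenger RNAs, and Pol III makes transfer RNAs and other short RNAs. Each enzyme has subunits of its own and shares others with its relatives. Pol II starts at promoters with general factors, of which TFIID recognises the promoter through TBP and the TAFs and TFIIH opens the DNA. Mediator bridges activators at enhancers to Pol II through a tail, a middle and a head, with a kinase module that can attach and detach. Genes of this machinery are commonly treated as housekeeping genes, although several have tissue-restricted paralogs.

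Most genes of the machinery differed between the groups, about as often as genes in general, but by less. Of the 96 members, 95 had a mean of at least 1 TPM over the 6 libraries and were tested with limma on log2(TPM + 1), in 1 fit over 10348 genes with Benjamini-Hochberg adjustment and a threshold of 0.05. The exception, GTF2A1L, a germ-cell relative of a TFIIA subunit, averaged 0.12 TPM in S127A and 0.0233 TPM in WT libraries. In all, 83 members (87.4%) passed the threshold, beside 90.0% of all tested genes. There were 38 higher in S127A (40.0%, beside 40.2% of all genes) and 45 lower (47.4%, beside 49.8%), while 12 did not pass. The counts given for each list below stand beside these shares of all genes, 40.2% higher and 49.8% lower. A change of at least 2-fold on the log2(TPM + 1) scale was seen for 15 members (15.8%), beside 35.4% of all genes. Of these, 7 were higher (7.37%, beside 15.5%) and 8 lower (8.42%, beside 19.9%). The 15 include MED12L, TAF9B and TAF7L, which averaged under 1 TPM in 1 group and were tested through the other. Over the alternatives, the log2 differences nearest 0 were -0.54 for MED12L and 0.83 for TAF7L, both under 2-fold. The median absolute log2 difference was 0.47 over the members and 0.69 over all tested genes, and the median signed difference was -0.09 and -0.12. The groups did not overlap for 83 members (87.4%), beside 90.2% of all genes. A pair of genes, named after their values were seen, separated the call from the overlap: GTF2E1 did not overlap but did not pass, and GTF2H4 passed although its libraries overlapped.

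The summed level differed little. All 96 members together held 5091, 5065 and 5072 TPM in S127A libraries, against 5163, 5169 and 5215 TPM in WT libraries. The S127A libraries were lower without overlap, as was the total of the whole table, at 830745 to 833332 TPM in S127A, against 862949 to 864529 TPM in WT libraries. As a share of that total the direction turned, with 0.613%, 0.608% and 0.61% in S127A libraries, against 0.597%, 0.599% and 0.603% in WT libraries. Across the 95 tested members, Spearman's rho between the mean TPM of the groups was 0.82, and it was 0.73 across all tested genes. These correlations run across genes of the same libraries and are descriptions. Replicates were close: among the 91 members with at least 5 TPM on average in both groups, the median coefficient of variation was 4.07% in S127A and 3.62% in WT libraries. In bulk RNA, a difference in the cells present and a difference in RNA per cell cannot be told apart.

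**Figure D1:**
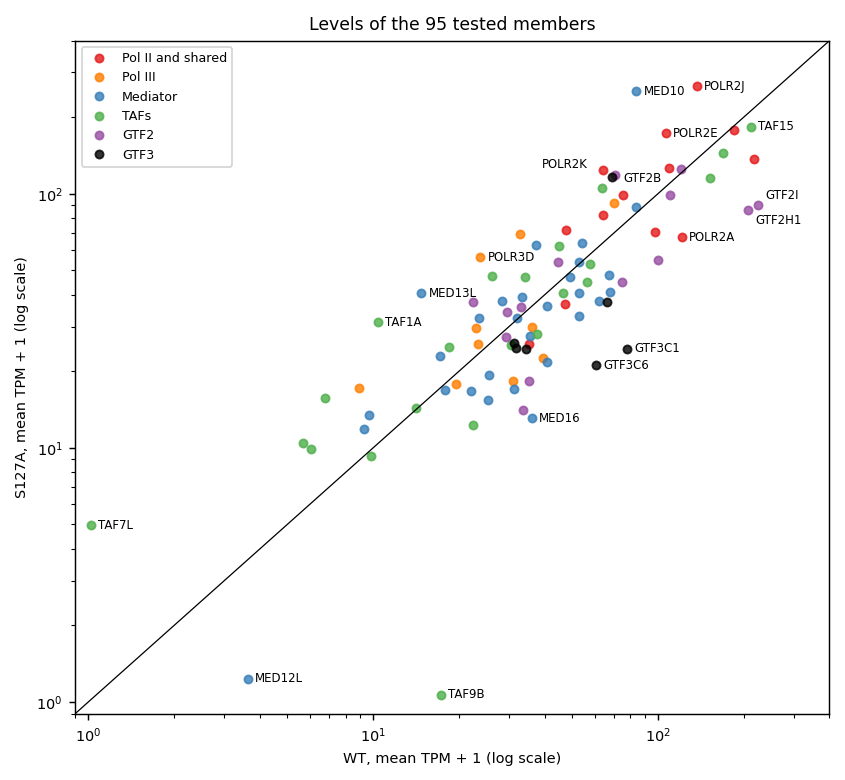
Mean TPM + 1 of the 95 tested members on log axes, S127A on the vertical axis and WT on the horizontal axis, 3 libraries each, coloured by complex; the line marks equal levels. Most members lie close to the line, with MED10, TAF1A and TAF7L above it and TAF9B, MED12L, GTF3C1 and GTF3C6 below it.

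**Figure D2:**
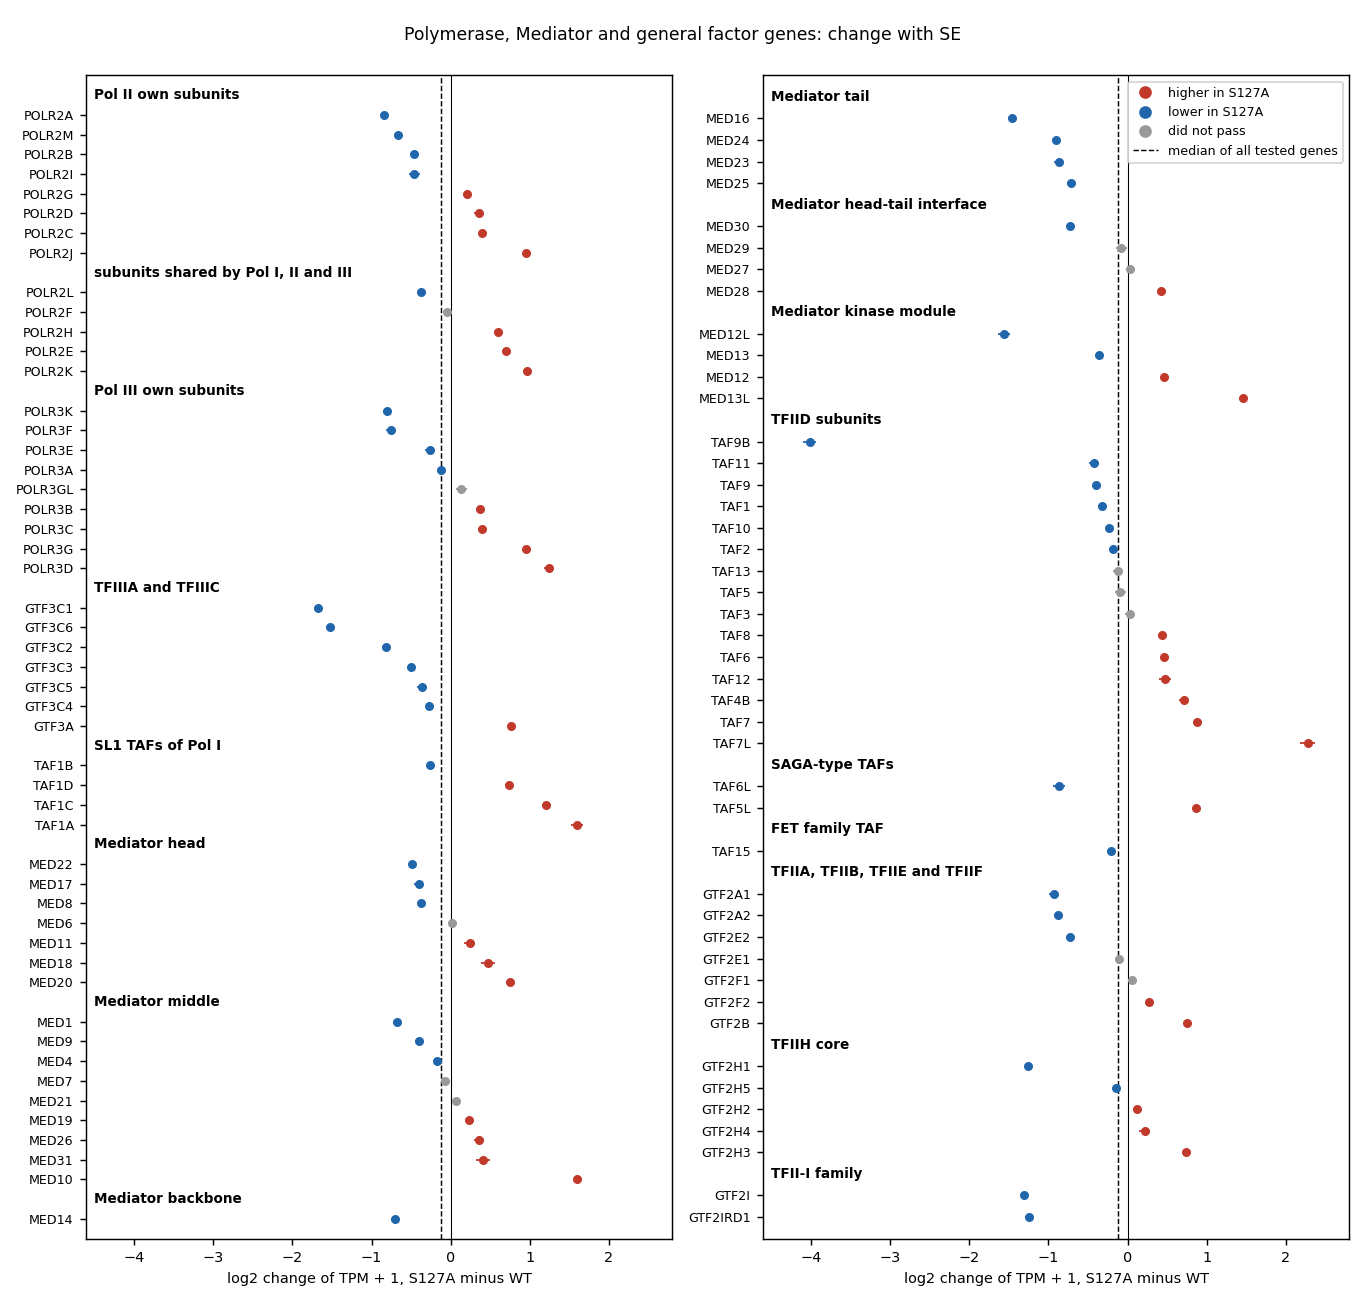
Difference in log2(TPM + 1), S127A minus WT, with its standard error, for the tested members reported here, grouped by role; red passed and was higher in S127A, blue passed and was lower, grey did not pass, and the dashed line is the median of all tested genes at -0.12. The genes listed as Mediator tail, the TFIIIC subunits and the TFII-I family lie wholly to the left, and 3 of the 4 SL1 TAFs lie to the right.

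Promoter sequences are shown for the 5 members with the largest absolute differences in log2(TPM + 1), 3 higher and 2 lower in S127A. They come from the RefSeq promoter table on build GRCm38.p6, run from 250 bases before to 50 bases after the annotated start, and are written 5′ to 3′ on the gene's strand. Of the 96 members, 82 had an entry. Capitals mark every match, on either strand, to CCGGAAG (the core bound by ETS factors), GGGGCGGGG (bound by SP factors) or TATAAA (the TATA box). The TAF9B promoter (chrX:106221109-106221408, minus strand) holds 3 SP matches and belongs to the member with the largest fall. It is 1 of 2 RefSeq starts, and the other (chrX:106219793-106220092) holds 0 matches. The TAF7L promoter (chrX:134476441-134476740, minus strand) holds TATA letters that match on both strands with overlap. It belongs to the member with the largest rise on the log2(TPM + 1) scale, a place that depends on the setting. The MED10 promoter (chr13:69809632-69809931, plus strand, 1 of 2 RefSeq starts) holds 2 SP and 3 ETS matches, some of them overlapping, while the window of the other start (chr13:69802120-69802419), nearer the annotated gene start, holds 0. TAF1A (chr1:183388735-183389034, plus strand, 1 of 2 starts) holds 3 ETS matches, with 2 in the overlapping window of its other start, and GTF3C1 (chr7:125707639-125707938, minus strand) holds 1.
TAF9B: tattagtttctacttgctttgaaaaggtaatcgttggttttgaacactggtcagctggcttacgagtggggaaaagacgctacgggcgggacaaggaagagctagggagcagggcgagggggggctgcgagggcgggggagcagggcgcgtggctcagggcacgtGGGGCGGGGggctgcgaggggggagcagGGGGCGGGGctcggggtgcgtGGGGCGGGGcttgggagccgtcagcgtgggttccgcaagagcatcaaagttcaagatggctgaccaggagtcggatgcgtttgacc
TAF7L: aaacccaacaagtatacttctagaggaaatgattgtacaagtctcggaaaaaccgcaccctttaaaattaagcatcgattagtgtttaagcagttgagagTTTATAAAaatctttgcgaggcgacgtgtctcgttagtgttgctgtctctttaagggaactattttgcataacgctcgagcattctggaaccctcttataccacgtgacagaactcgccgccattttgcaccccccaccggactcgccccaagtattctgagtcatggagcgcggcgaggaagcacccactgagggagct
MED10: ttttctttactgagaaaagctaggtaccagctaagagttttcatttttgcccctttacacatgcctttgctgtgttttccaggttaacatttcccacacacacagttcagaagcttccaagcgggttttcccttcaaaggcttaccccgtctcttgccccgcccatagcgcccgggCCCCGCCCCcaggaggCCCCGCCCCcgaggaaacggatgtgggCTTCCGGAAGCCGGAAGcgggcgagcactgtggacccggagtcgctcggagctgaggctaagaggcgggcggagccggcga
TAF1A: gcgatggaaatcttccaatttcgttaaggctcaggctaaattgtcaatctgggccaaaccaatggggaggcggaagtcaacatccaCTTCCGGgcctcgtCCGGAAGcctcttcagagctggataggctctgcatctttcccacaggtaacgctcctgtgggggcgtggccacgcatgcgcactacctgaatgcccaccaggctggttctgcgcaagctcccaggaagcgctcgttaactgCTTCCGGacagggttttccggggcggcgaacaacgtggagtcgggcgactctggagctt
GTF3C1: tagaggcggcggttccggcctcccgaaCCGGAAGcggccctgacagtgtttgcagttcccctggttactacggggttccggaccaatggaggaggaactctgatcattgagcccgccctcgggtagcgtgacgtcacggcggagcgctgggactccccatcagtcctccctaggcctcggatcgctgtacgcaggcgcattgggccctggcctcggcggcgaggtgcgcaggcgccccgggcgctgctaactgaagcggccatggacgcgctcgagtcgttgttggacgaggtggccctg
The ETS core was present in 29 of the 82 members with an entry (35.4%), beside 21.0% of 7929 tested genes and 9.93% of all 27025 genes in the table. It was present in 13 of 31 higher members (41.9%) and in 11 of 38 lower members (28.9%). SP letters were in 14 members (17.1%, beside 26.5% of tested genes and 12.9% of all genes), TATA letters in 13 (15.9%, beside 8.15% and 15.7%) and the YY1 motif AAGATGGCG in 5 (6.10%, beside 3.90% and 1.64%). The NRF1 motif was in 0 of the 82 windows, beside 2.54% of tested genes and 1.07% of all genes. For SP and TATA the members thus stand differently to the tested genes than to all genes. These matches are descriptions of letters, not of bound sites.

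Pol II's own subunits split evenly, with the catalytic pair lower. Of 8 genes, 4 rose and 4 fell, with a median log2 difference of -0.13. POLR2A, the largest subunit, whose C-terminal repeats are phosphorylated during the transcription cycle, had 64.3, 66.8 and 68.6 TPM in S127A libraries, against 118, 126 and 117 TPM in WT libraries. All S127A libraries lay below all WT libraries, and the log2 difference was -0.85 ± 0.0398 (SE; limma adjusted p = 3.40e-09). POLR2B, which forms the other side of the active centre, had 70.05, 69.5 and 70.0 TPM in S127A libraries, against 94.7, 97.2 and 98.7 TPM in WT libraries. It too fell without overlap, by 0.47 on the log2 scale. POLR2M, the Gdown1 protein that associates with Pol II, had 136, 138 and 135 TPM in S127A libraries, against 207, 213 and 228 TPM in WT libraries, a log2 difference of -0.66. Among the 13 Pol II genes, shared subunits included, it stood at rank 4 in S127A libraries and rank 1 in WT libraries.

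The rise in the Pol II set was led by a small subunit. POLR2J, which pairs with the POLR2C product in the assembly platform of the enzyme, had 265, 259 and 269 TPM in S127A libraries, against 136, 138 and 133 TPM in WT libraries. It rose by 0.96 ± 0.0298 on the log2 scale (SE; limma adjusted p = 1.02e-10) and ranked 1 of 13 in S127A and 3 of 13 in WT libraries. Its exons share 176 bases with Lrwd1 on the opposite strand, and since no strand setting is stated, reads of such partners cannot be told apart. The other risers, POLR2C, POLR2D and POLR2G, differed by 0.21 to 0.39, and POLR2I fell by 0.46. Summed over the 8 genes, the Pol II set held 866 ± 10.6 TPM in S127A and 849 ± 14.0 TPM in WT libraries (SD, n = 3 each).

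The subunits shared by all polymerases moved unequally. Of 5 genes, 3 rose, 1 fell and 1 did not pass (beside 40.2% of all genes higher and 49.8% lower), with a median log2 difference of 0.59 that stayed between 0.65 and 0.69 under the other scalings. POLR2K, the smallest zinc-binding shared subunit, had 125, 124 and 120.2 TPM in S127A libraries, against 62.0, 59.8 and 67.3 TPM in WT libraries. It rose by 0.96 on the log2 scale (limma adjusted p = 3.19e-09), with no overlap. POLR2E had 169, 172 and 175 TPM in S127A libraries, against 101, 104.6 and 112 TPM in WT libraries, and rose by 0.70. POLR2L, another small zinc-binding subunit, averaged 35.7 ± 1.75 TPM in S127A and 46.3 ± 0.482 TPM in WT libraries (SD, n = 3 each) and fell by 0.37. POLR2F averaged 178 ± 7.24 TPM in S127A and 184 ± 8.98 TPM in WT libraries and did not pass (limma adjusted p = 0.282).

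Pol III's own subunits moved in both directions. Of 10 genes, 5 rose, 4 fell and 1 did not pass, beside 40.2% of all genes higher and 49.8% lower. The median log2 difference was 0.25. POLR3D, a TFIIF-like subunit of the enzyme, had 49.95, 57.9 and 58.0 TPM in S127A libraries, against 22.1, 23.00 and 23.2 TPM in WT libraries. It rose by 1.24 ± 0.0591 on the log2 scale (SE; limma adjusted p = 3.88e-09), without overlap. The large catalytic subunits moved little: POLR3B averaged 28.7 ± 0.469 TPM in S127A and 22.0 ± 0.687 TPM in WT libraries (SD, n = 3 each), a log2 difference of 0.37. POLR3A had 16.1, 17.5 and 17.0 TPM in S127A libraries, against 18.7, 18.3 and 18.4 TPM in WT libraries. Its log2 difference of -0.12 passed at a limma adjusted p of 0.0376, which ranged from 0.0233 to 0.729 over the 16 alternative settings. POLR3K, the small subunit tied to termination and RNA cleavage, had 22.8, 21.4 and 20.5 TPM in S127A libraries, against 40.3, 36.4 and 38.5 TPM in WT libraries, and fell by 0.81.

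Pol III contains either POLR3G, the form known from stem and tumour cells, or its paralog POLR3GL, the form of most differentiated cells. POLR3G had 16.2, 16.1 and 16.5 TPM in S127A libraries, against 7.53, 8.04 and 8.22 TPM in WT libraries. It rose by 0.95 ± 0.0558 on the log2 scale (SE; limma adjusted p = 2.32e-08), and the lowest S127A library lay well above the highest WT library. POLR3GL had 27.3, 22.3 and 24.2 TPM in S127A libraries, against 22.3, 23.5 and 21.1 TPM in WT libraries, and these overlapped. It did not pass in the fit on the deposited values (limma adjusted p = 0.102), with a range of 0.0117 to 0.393 over the alternatives.

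Every TFIIIC subunit fell while TFIIIA rose. TFIIIC binds the internal promoters of transfer RNA genes and recruits TFIIIB, and TFIIIA is the zinc finger protein that adds the 5S ribosomal RNA gene to its targets. All 6 GTF3C genes were lower in S127A, with a median log2 difference of -0.66, beside 49.8% of all genes lower and a median of -0.12 over all genes. GTF3C1 (chr7:125640954-125707780, minus strand, mm10), the largest subunit, had 21.6, 24.7 and 24.5 TPM in S127A libraries, against 77.2, 77.5 and 76.7 TPM in WT libraries. No S127A library came near a WT library, and the log2 difference was -1.67 ± 0.0515 (SE; limma adjusted p = 9.31e-11). GTF3C6 (chr10:40247703-40258108, minus strand, mm10), the smallest subunit, had 20.8, 19.0 and 20.6 TPM in S127A libraries, against 59.0, 59.6 and 60.6 TPM in WT libraries. It fell by 1.52 (limma adjusted p = 7.38e-11). The other TFIIIC genes fell by 0.27 to 0.82, and GTF3C2, which led them, shares 2556 exon bases with Gm29609 on the same strand. The 6 genes spanned 20.1 to 36.4 TPM on average in S127A libraries, against 30.3 to 77.1 TPM in WT libraries.

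GTF3A, which encodes TFIIIA, had 112, 118 and 117 TPM in S127A libraries, against 64.2, 68.2 and 71.7 TPM in WT libraries. It rose by 0.76 on the log2 scale (limma adjusted p = 1.85e-08), and its exons share 1505 bases with Mtif3 on the opposite strand. Summed with TFIIIC, the 7 genes held 268 ± 2.66 TPM in S127A and 364 ± 7.82 TPM in WT libraries (SD, n = 3 each).

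SL1, the TBP complex that places Pol I on ribosomal DNA, had 3 of its 4 TAFs higher, beside 40.2% of all genes. TAF1A (chr1:183388981-183410198, plus strand, mm10) had 28.9, 32.2 and 29.5 TPM in S127A libraries, against 9.14, 10.6 and 8.36 TPM in WT libraries. The groups were far apart, with a log2 difference of 1.59 ± 0.0789 (SE; limma adjusted p = 5.33e-09). TAF1C had 14.3, 15.5 and 14.2 TPM in S127A libraries, against 5.73, 6.02 and 5.59 TPM in WT libraries, a log2 difference of 1.21. It shares 584 exon bases with Dnaaf1 on the opposite strand. TAF1D averaged 104.7 ± 5.42 TPM in S127A and 62.5 ± 3.84 TPM in WT libraries and rose by 0.73. Its exons share 235 bases with 4931406C07Rik and 77 with Cep295, each on the opposite strand. TAF1B was the exception, at 24.5 ± 0.752 TPM in S127A and 29.5 ± 0.964 TPM in WT libraries (SD, n = 3 each), and fell by 0.26.

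**Figure D3:**
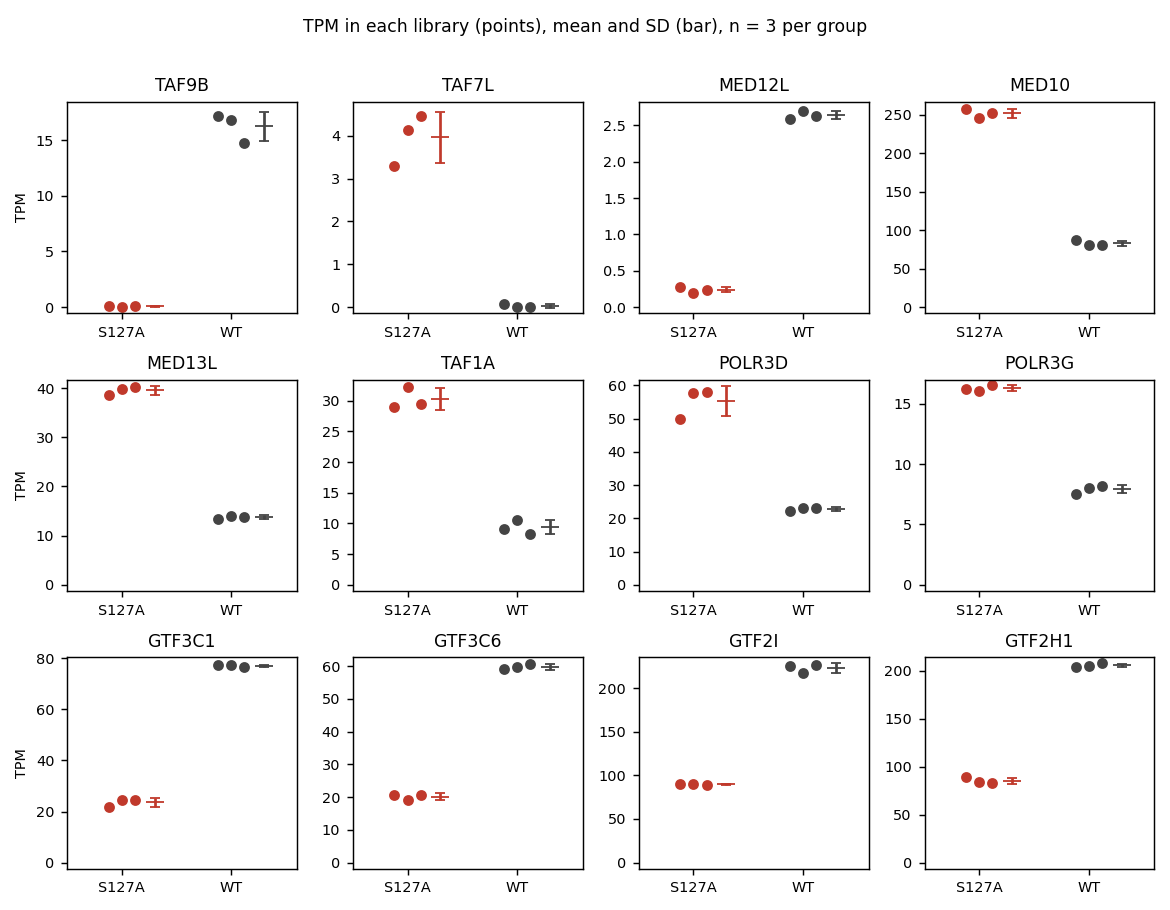
TPM of 12 members in each library, 3 S127A libraries on the left and 3 WT libraries on the right of each panel, with the mean and SD beside the points; each panel has its own linear axis starting near 0. In every panel the 3 S127A points lie apart from the 3 WT points, from TAF9B at 0 to 0.10 against 14.8 to 17.2 TPM to MED10 at 246 to 257 against 81.1 to 86.7 TPM.

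Mediator genes moved in both directions, while the measured genes of the tail list were all lower. Of the 29 measured Mediator genes, 10 rose, 14 fell and 5 did not pass, and the median log2 difference was -0.08, beside -0.12 over all genes, and turned sign with TMM factors (0.01) and quantile normalization (0.0088). The tail is the part that many activators touch. All 4 measured genes listed here as tail were lower (beside 49.8% of all genes). Their median of -0.89 stayed between -0.84 and -0.80 under the other scalings. MED27 to MED30 were listed apart, as lying between head and tail, and of these 1 rose, 1 fell and 2 did not pass. MED16 (chr10:79894708-79908923, minus strand, mm10) had 12.1, 12.2 and 12.04 TPM in S127A libraries, against 33.3, 36.3 and 35.5 TPM in WT libraries. Its log2 difference was -1.46 ± 0.0491 (SE; limma adjusted p = 2.00e-10), and MED16 stood at rank 27 of 29 Mediator genes in S127A libraries and rank 14 in WT libraries. MED23, through which ERK-responsive activators reach Mediator, had 15.0, 15.9 and 17.4 TPM in S127A libraries, against 29.1, 31.1 and 30.3 TPM in WT libraries, and fell by 0.87. MED24 and MED25 fell by 0.91 and 0.72. Together the tail genes held 80.6, 88.7 and 88.5 TPM in S127A libraries, against 166, 164 and 169 TPM in WT libraries. MED15, the remaining gene of the tail list, was not analysed here. MED14, the backbone that joins the modules, had 14.6, 14.2 and 14.7 TPM in S127A libraries, against 24.5, 25.3 and 23.1 TPM in WT libraries, and fell by 0.71.

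In the middle module, which links head and tail, MED10 stood apart. MED10 (chr13:69802395-69816104, plus strand, mm10) had 257, 246 and 253 TPM in S127A libraries, against 86.7, 81.3 and 81.1 TPM in WT libraries. It was higher in each S127A library than in any WT library by a wide gap, with a log2 difference of 1.59 ± 0.0360 (SE; limma adjusted p = 7.32e-12). In S127A libraries MED10 was the most abundant Mediator transcript, and MED21 followed at 87.5 ± 5.76 TPM. In WT libraries MED21 and MED10 were level, at 83.1 ± 3.68 and 83.0 ± 3.21 TPM (SD, n = 3 each). MED1, the subunit that nuclear receptors bind, had 32.1, 30.8 and 33.0 TPM in S127A libraries, against 53.2, 51.9 and 50.4 TPM in WT libraries, and fell by 0.68. MED26, which couples Mediator to elongation factors, had 10.3, 10.9 and 11.5 TPM in S127A libraries, against 8.24, 8.05 and 8.53 TPM in WT libraries, and rose by 0.36. Over the 9 middle genes, 4 rose, 3 fell and 2 did not pass, and their sum was 564 ± 8.80 TPM in S127A and 405 ± 8.87 TPM in WT libraries. Without MED10 the sum was 312 ± 5.93 TPM in S127A and 322 ± 5.87 TPM in WT libraries (SD, n = 3 each), lower on average but overlapping between libraries.

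The head, which contacts Pol II, was balanced. Of 7 genes, 3 rose, 3 fell and 1 did not pass, and their sum of 270 ± 6.95 TPM in S127A and 272 ± 7.36 TPM in WT libraries overlapped. MED20 led the rise at 61.8 ± 3.90 TPM in S127A and 36.4 ± 1.53 TPM in WT libraries, a log2 difference of 0.75, and shares 513 exon bases with Gm20517 on the same strand. MED22 led the fall at 47.1 ± 1.12 TPM in S127A and 66.4 ± 0.527 TPM in WT libraries (SD, n = 3 each), a log2 difference of -0.49. Between head and tail, MED30 fell by 0.73, MED28 rose by 0.42, and MED27 and MED29 did not pass.

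In the kinase module, paralogs moved in opposite directions. MED12 and MED13, with their relatives MED12L and MED13L, hold the cyclin C kinase to Mediator. MED13L (chr5:118560679-118765438, plus strand, mm10) had 38.6, 39.7 and 40.3 TPM in S127A libraries, against 13.4, 14.1 and 13.8 TPM in WT libraries, and rose by 1.46 ± 0.0453 on the log2 scale (SE; limma adjusted p = 1.01e-10). MED13 went the other way, with 27.3, 25.3 and 27.3 TPM in S127A libraries, against 35.1, 34.2 and 34.1 TPM in WT libraries, a log2 difference of -0.36. MED13L ranked 10 of 29 among Mediator genes in S127A libraries and 26 in WT libraries. MED12 had 30.7, 31.6 and 32.4 TPM in S127A libraries, against 22.7, 22.97 and 22.2 TPM in WT libraries, and rose by 0.46. MED12L had 0.27, 0.20 and 0.24 TPM in S127A libraries, against 2.59, 2.70 and 2.63 TPM in WT libraries. It passed the filter on low values through its WT level, and its exons share 1948 bases with Igsf10 on the opposite strand. Summed, the module held 97.96 ± 1.98 TPM in S127A and 73.5 ± 0.628 TPM in WT libraries (SD, n = 3 each).

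On the log2(TPM + 1) scale, TFIID contained both extremes of the whole set. Of its 15 measured genes, 6 rose, 6 fell and 3 did not pass, with a median log2 difference of -0.09 whose sign turned under quantile normalization (0.05). TAF9B (chrX:106206883-106221158, minus strand, mm10), a paralog of the histone-fold subunit TAF9, had 0.10, 0 and 0.10 TPM in S127A libraries, against 17.2, 16.8 and 14.8 TPM in WT libraries. The transcript was nearly undetected in every S127A library, and the log2(TPM + 1) difference was -4.02 ± 0.0810 (SE; limma adjusted p = 2.87e-12), a scale that understates changes of low genes. TAF9 had 122, 108 and 114 TPM in S127A libraries, against 153, 152 and 149.5 TPM in WT libraries, and fell by 0.40. It shares 1564 exon bases with Ak6 on the same strand, so its level is uncertain. TAF7L (chrX:134460118-134476490, minus strand, mm10), known from germ cells and fat cells, had 3.30, 4.14 and 4.46 TPM in S127A libraries, against 0.07, 0 and 0 TPM in WT libraries. It rose by 2.27 ± 0.0988 on the log2(TPM + 1) scale (SE; limma adjusted p = 1.76e-09). Over the alternatives in which TAF7L was tested, its log2 difference ranged from 0.83 to 5.08, while that of MED10 was never below 1.55. The place of TAF7L as the largest rise thus depends on the setting. TAF9B and TAF7L each passed the filter through the group in which they were high.

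The other TFIID genes moved less than TAF9B and TAF7L. TAF1, the scaffold of the complex, had 47.0, 41.2 and 43.6 TPM in S127A libraries, against 54.9, 55.9 and 55.2 TPM in WT libraries, and fell by 0.33. TAF3, which reads methylated histone tails, had 13.9, 13.0 and 13.2 TPM in S127A libraries, against 13.0, 12.7 and 13.6 TPM in WT libraries. These overlapped and did not pass (limma adjusted p = 0.646). TAF4B, the paralog known from gonads, had 9.24, 8.86 and 8.61 TPM in S127A libraries, against 5.26, 5.03 and 4.85 TPM in WT libraries, and rose by 0.71. TAF4 was not analysed here. TAF7, the paralog of TAF7L, had 9.72, 9.70 and 8.90 TPM in S127A libraries, against 4.57, 4.75 and 4.67 TPM in WT libraries, and rose by 0.88. The 15 genes summed to 596 ± 9.04 TPM in S127A and 656 ± 1.08 TPM in WT libraries (SD, n = 3 each).

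TAF9B lies on the X chromosome beside PGK1, a glycolytic enzyme gene, and its neighbours were examined after its value had been seen. Within 2500 kb on each side, 19 other genes were listed and 11 were tested. Of these 11, 10 were lower in S127A, 0 were higher, and UPRT did not pass, with a median log2 difference of -1.66. PGK1 averaged 859 ± 14.5 TPM in S127A and 4573 ± 95.1 TPM in WT libraries, and ATP7A, a copper transporter, averaged 10.1 ± 0.204 TPM in S127A and 45.3 ± 1.56 TPM in WT libraries (SD, n = 3 each). COX7B, a respiratory chain subunit, fell by 1.66, and ATRX, a chromatin remodeller, by 1.84. On the whole X chromosome, 298 genes were tested, 134 were higher and 151 lower (50.7%), with a median of -0.14. All 10 lower neighbours lay on the side of PGK1, while the 6 listed genes on the other side averaged under 1 TPM.

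**Figure D4:**
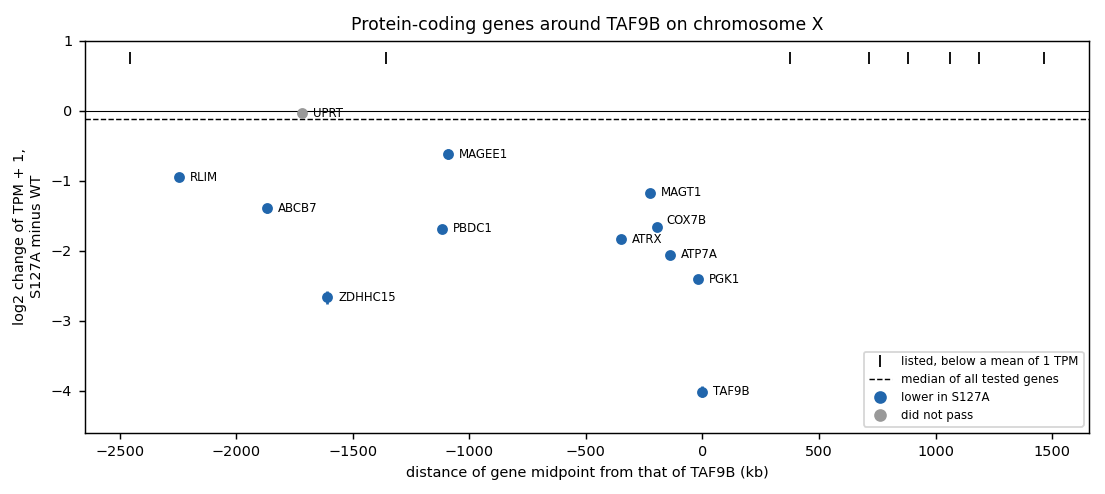
Difference in log2(TPM + 1), S127A minus WT, for TAF9B and its tested neighbours against distance from TAF9B in kb along the X chromosome, with genes under 1 TPM marked along the top. TAF9B at -4.02 is the lowest point, PGK1 beside it is at -2.41, and UPRT at -0.03 is the only tested neighbour that did not pass.

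TAFs of related complexes also diverged. TAF5L and TAF6L replace TAF5 and TAF6 in the histone acetyltransferase complex SAGA. TAF5L had 46.5, 45.9 and 47.1 TPM in S127A libraries, against 24.5, 25.7 and 25.0 TPM in WT libraries, and rose by 0.87. TAF6L had 11.2, 12.4 and 10.4 TPM in S127A libraries, against 20.8, 23.2 and 20.5 TPM in WT libraries, and fell by 0.87. TAF15, an RNA-binding protein of the FET family rather than a core TFIID subunit, had 195, 172 and 180 TPM in S127A libraries, against 199, 223 and 211 TPM in WT libraries. Its fall of 0.21 passed at a limma adjusted p of 0.00258 but was lost with TMM factors (0.0545) and quantile normalization (0.27).

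Shares within paralog pairs were compared in each library, as the TPM of 1 gene over the sum of its pair. With 3 libraries against 3, the two-sided exact permutation test cannot go below p = 0.1, and 8 of 9 pairs reached that value (0.113 after Benjamini-Hochberg adjustment over the 9 pairs), so none can pass a threshold of 0.05. A pair entered if each gene averaged at least 1 TPM in either group. TAF7L, TAF9B and MED12L did so only in the group where they were high. That entry favoured separated shares, so the p-values of their pairs are no support. MED13 made up 40.3% ± 1.27 of its pair with MED13L in S127A libraries and 71.5% ± 0.838 in WT libraries (SD, n = 3 each), so the more abundant partner was MED13L in all S127A libraries and MED13 in all WT libraries. POLR3G was 37.2%, 41.9% and 40.6% of its pair in S127A libraries, against 25.3%, 25.5% and 28.0% in WT libraries, and remained the lesser form in each. TAF7 made up 74.7%, 70.1% and 66.6% of its pair with TAF7L in S127A libraries, against 98.5%, 100% and 100% in WT libraries. TAF5 held 15.1% ± 1.09 of its pair with TAF5L in S127A and 26.1% ± 0.822 in WT libraries, whereas TAF6 held 84.4% ± 1.04 of its pair with TAF6L in S127A and 67.2% ± 1.31 in WT libraries. TAF6 shares 1185 exon bases with Ap4m1 and TAF5 shares 16 with Usmg5, each on the opposite strand. TAF9 held 99.9% ± 0.0491 of its pair with TAF9B in S127A and 90.3% ± 0.616 in WT libraries, and MED12 held 99.3% ± 0.122 of its pair in S127A and 89.5% ± 0.179 in WT libraries. Outside the rule, CDK8 held 87.8% ± 0.482 of its pair with CDK19 in S127A and 77.2% ± 0.611 in WT libraries, and TBP was the exception at 43.0% ± 1.10 in S127A and 43.8% ± 2.48 in WT libraries (exact permutation p = 0.7).

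**Figure D5:**
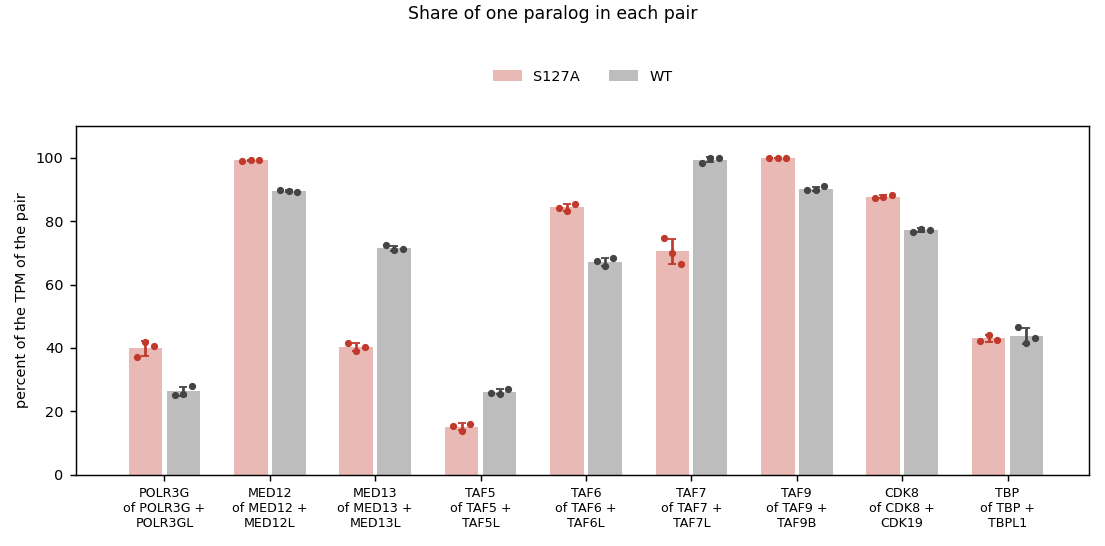
Percent of the summed TPM of each paralog pair that the first-named gene holds, bars for the mean of 3 S127A libraries (left of each pair) and 3 WT libraries (right), error bars for the SD and points for the libraries. MED13 lies below 50% in S127A and above it in WT libraries, and TBP is the pair whose libraries overlap.

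The general factors that assemble with Pol II at the promoter were mixed. Of the 7 tested genes of TFIIA, TFIIB, TFIIE and TFIIF, 2 rose, 3 fell and 2 did not pass. GTF2B, which is TFIIB and positions the polymerase at the start site, had 122, 116 and 115 TPM in S127A libraries, against 69.9, 68.8 and 69.9 TPM in WT libraries. It rose without overlap by 0.75 ± 0.0346 on the log2 scale (SE; limma adjusted p = 2.84e-09). GTF2A1, the large TFIIA subunit, had 18.5, 17.0 and 16.6 TPM in S127A libraries, against 36.6, 32.4 and 33.5 TPM in WT libraries, and fell by 0.94. GTF2A2, the small TFIIA subunit, and GTF2E2, a TFIIE subunit, fell by 0.88 and 0.73.

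The TFIIH core, which serves transcription and nucleotide excision repair, held 1 large change. GTF2H1 (chr7:46796103-46823800, plus strand, mm10) had 89.05, 83.6 and 83.4 TPM in S127A libraries, against 204, 205 and 208 TPM in WT libraries. The log2 difference was -1.26 ± 0.0341 (SE; limma adjusted p = 3.16e-11). GTF2H3 had 35.04, 36.7 and 37.8 TPM in S127A libraries, against 20.8, 22.0 and 21.7 TPM in WT libraries, and rose by 0.74. Of the remaining core genes, GTF2H2 and GTF2H4 rose and GTF2H5 fell, each by at most 0.21. GTF2H5 did not pass with TMM factors or quantile normalization (highest limma adjusted p = 0.409). The call on GTF2H2 was lost without S127A replicate 3 (limma adjusted p = 0.0842) or WT replicate 3 (0.0942).

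TFII-I, the signal-responsive factor that binds initiator elements, and its relative were both lower. GTF2I (chr5:134237834-134314760, minus strand, mm10) had 89.7, 89.9 and 89.4 TPM in S127A libraries, against 225, 217 and 227 TPM in WT libraries. The groups lay far apart, with a log2 difference of -1.30 ± 0.0302 (SE; limma adjusted p = 8.77e-12). GTF2IRD1 had 12.4, 13.2 and 13.6 TPM in S127A libraries, against 32.9, 32.01 and 32.5 TPM in WT libraries, and fell by 1.25. Of all 96 members, POLR2J had the highest mean in S127A libraries and GTF2I in WT libraries, although TAF15 exceeded GTF2I in WT replicate 2 and POLR2M did in WT replicate 3. GTF2IRD2 was not analysed here.

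The 12 tested members that did not pass were POLR2F, POLR3GL, MED6, MED7, MED21, MED27, MED29, TAF3, TAF5, TAF13, GTF2E1 and GTF2F1, with log2 differences between -0.12 (TAF13) and 0.13 (POLR3GL). Of these, 7 (MED6, MED21, POLR3GL, GTF2E1, GTF2F1, TAF13 and POLR2F) passed under at least 1 alternative, and MED21, GTF2F1 and POLR3GL were higher under all 3 other scalings. MED6 averaged 52.7 ± 1.98 TPM in S127A and 52.0 ± 2.99 TPM in WT libraries, and MED27 averaged 31.5 ± 0.270 TPM in S127A and 31.0 ± 2.08 TPM in WT libraries (SD, n = 3 each). TAF5 averaged 8.27 ± 0.805 TPM in S127A and 8.86 ± 0.384 TPM in WT libraries. These p-values do not show that the levels were the same. Over the whole set, 21 members share exon bases with another protein-coding gene, 3 of them on the same strand, and counting without strand would mix such partners.

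Among partner genes outside the naming rule, more rose than fell, where 40.2% of all genes rose and 49.8% fell. Of 59 listed genes of Pol I, TFIIIB, TFIIH, pausing, elongation and polymerase assembly, 57 were tested, 32 rose, 18 fell and 7 did not pass, with a median log2 difference of 0.23. HEXIM1, the inhibitor of the elongation kinase P-TEFb, had 9.99, 9.94 and 9.06 TPM in S127A libraries, against 67.75, 67.0 and 70.55 TPM in WT libraries. ELL2, a subunit of the super elongation complex, showed the reverse, with 22.0, 21.6 and 20.6 TPM in S127A libraries, against 2.87, 2.32 and 1.75 TPM in WT libraries. Their log2 differences were -2.70 and 2.77 (limma adjusted p = 1.55e-12 and 6.47e-10), and over the 18 tested pausing and elongation genes 10 rose, 5 fell and 3 did not pass.

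The genes listed as Pol I subunits, not all of them its own, were split like those of Pol II. Of 8 genes, 4 rose, 3 fell and 1 did not pass, led by CD3EAP at 33.8 ± 1.03 TPM in S127A and 15.2 ± 0.345 TPM in WT libraries, and by POLR1C, which Pol III also uses, at 115 ± 2.42 TPM in S127A and 165 ± 4.78 TPM in WT libraries (SD, n = 3 each). Of the Pol I initiation factors, UBTF rose by 0.23 and RRN3 fell by 0.68. TBP and TBPL1 both rose, TBPL1 by 0.49. Of the Mediator kinase partners, CDK8 rose by 0.68, CDK19 fell by 0.37 and CCNC did not pass. Of 5 TFIIH helicase and kinase genes, 4 rose, led by CCNH with 0.63, and 1 did not pass. Of 9 genes of TFIIIB, the small nuclear RNA activating complex and the Pol III repressor MAF1, 5 rose, 3 fell and 1 did not pass. BRF2, a TFIIIB subunit for a subset of Pol III promoters, averaged 23.5 ± 0.563 TPM in S127A and 13.6 ± 0.291 TPM in WT libraries, while SNAPC5 averaged 18.6 ± 1.43 TPM in S127A and 47.2 ± 1.33 TPM in WT libraries. Assembly and C-terminal repeat factors split 5 to 5, with RPAP3 higher by 0.40 and the phosphatase SSU72 lower by 0.85 in S127A.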

How the data were processed

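RNA was measured in 6 libraries labelled B16F10, 3 S127A and 3 WT, grouped by sample title. Libraries were made from TRIzol-extracted total RNA by random-hexamer priming, per the labels' protocols. The authors deposited TPM values per gene, and mm10 is the build per the submitters' processing notes. The sources used here name no aligner, quantifier, annotation or strand setting. TPM keeps no read depth, so no counting interval is given.

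TPM values were analysed as deposited with limma 3.58.1 in R 4.3.3 (eBayes with a trend) on log2(TPM + 1), without a block, for genes with a mean of at least 1 TPM, two-sided, with Benjamini-Hochberg adjustment over all tested genes. The fit was tested on simulated data. Fold changes refer to log2(TPM + 1) and understate changes of low genes. Paralog shares used an exact permutation test (Python 3.11.15, scipy 1.17.1). Gene positions and exon overlaps came from GENCODE M21 on mm10, promoters from RefSeq.

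The members and lists were chosen with earlier results of these data known. Named members were a panel, the largest rise and fall of each list, members of at least 2-fold with a group mean of at least 5 TPM, and those that did not pass. Others named were chosen after their values were seen, or belong to a paralog pair. The 16 alternatives covered pseudocount, filter, scaling, variance model, replicate block and leaving out each library. Some members are counted in their lists but not reported here.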

Additional observations from a re-analysis of the deposited data

How the results depend on the processing

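For the 58 tested members named by rule, 926 values were recomputed under the 16 alternatives: 887 kept their direction and side of the threshold, 17 passed where they had not, 11 no longer passed and 11 reversed. Over all 83 called members, 76 kept their call under every alternative in which they were tested. The 7 that lost it under at least 1 (TAF15, MED4, POLR3A, TAF10, TAF2, GTF2H5 and GTF2H2) had log2 differences of at most 0.23 in size. The 7 members that gained a call under at least 1 were MED6, MED21, POLR3GL, GTF2E1, GTF2F1, TAF13 and POLR2F. TAF15, the single gene of its list, left 0 calls in that list with TMM factors and 0 with quantile normalization. The reversals were small and concerned members that had not passed. With TMM factors, log2 differences became 0.0113 for MED29, 0.0253 for MED7 and 0.0448 for POLR2F. With a common total POLR2F became 0.0042. With quantile normalization they became 0.0252 for MED29, 0.0088 for MED7, 0.0479 for TAF5 and 0.11 for POLR2F, the last of which then passed (limma adjusted p = 0.0266). Leaving out each library in turn gave -0.0232 to 0.0705 for MED27 (lowest without WT replicate 1) and -0.0252 to 0.0555 for MED6, which was below 0 without WT replicate 3 and without S127A replicate 1. It gave -1.90 to 0.533 percentage points for the difference in TBP share, above 0 without WT replicate 1. The causes were not tested. Scaling moved the median of all genes by 0.09 with TMM factors, 0.05 with a common total and 0.11 with quantile normalization, and calls on members with log2 differences of up to 0.23 in size depended on it. Higher against lower members were 42 to 40 with TMM factors, 41 to 44 with a common total and 42 to 41 with quantile normalization. Replicate numbers gave little sign of pairing, which was not excluded. Deviations of same-numbered libraries correlated at 0.117, 0.0174 and 0.0279 across genes, against -0.0757 to 0.0544 for libraries with different numbers. With the replicate block, 9339 genes and the same number of members, 38 higher and 45 lower, passed. POLR3A lost its call (limma adjusted p = 0.0544) and TAF13 gained one (0.0469). The files give no read depth, so differences of genes near 0 TPM have unknown counting error.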

Other observations

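Directions of the members differed by chromosome, a grouping chosen after the values had been seen, and so did those of all genes. The 9789 tested genes with a chromosome had median log2 differences (S127A minus WT) between -0.54 (chromosome 12) and 0.28 (chromosome 15). The share of genes lower in S127A ran from 31.7% on chromosome 8 to 68.8% on chromosome 9. On the 12 chromosomes with a median under 0, 15 members were higher and 33 lower, and on the 8 chromosomes with a median over 0, 23 members were higher and 12 lower. Of the 83 called members, 56 had the sign of their chromosome's median, and 76 kept their own sign once that median was subtracted. By construction, a median takes the sign that prevails among the tested genes of its chromosome. The shares of all genes for these groups of chromosomes are not given here, so these counts are no result about the members. On chromosome 7, which carries GTF2H1 and GTF3C1, 0 members were higher, 7 were lower and 1 did not pass. Over all 691 tested genes there, 35.7% were higher and 54.6% lower. On chromosome 11, which carries POLR2A and MED24, 2 members were higher, 6 were lower and 1 did not pass, beside 68.5% of 823 genes lower.

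Groups that had moved in 1 direction were picked for that, so their values relative to their chromosomes are a description, not a test. The tail genes MED16, MED23, MED25 and MED24 were at -1.22, -0.63, -0.48 and -0.39 after subtracting the chromosome median. The TFIIIC genes lay between -1.43 (GTF3C1) and -0.24 (GTF3C4), and GTF2I and GTF2IRD1, on chromosome 5 with a median of 0.24, lay at -1.54 and -1.49. TAF1A lay at 1.73 and MED10 at 1.34. TAF1B, lower by 0.26 in S127A, lay at 0.28 above the median of chromosome 12, so all 4 SL1 TAFs were above their chromosomes' medians. The spread of the members' log2 differences was 0.86 (SD over 95 genes) and 0.84 after the subtraction. A whole-chromosome median does not describe regions within a chromosome. Copy number was not measured in these data, and its part was not tested.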
